A study of Mus musculus with 6 samples.

Results

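The 8 genes followed here were Npc1, Npc2, Lipa, Soat1, Nceh1, Plin2, Pnpla2 and Mgll, which act in the export of cholesterol from lysosomes and in the storage and release of its esters in lipid droplets. They were chosen by name, with earlier results of these data known. The 8 symbols were looked up among the 24394 gene symbols of the 6 files. RNA-seq libraries came from bone marrow-derived macrophages (BMMs), cells grown from the marrow of C57BL/6 mice at postnatal day 28 with macrophage colony-stimulating factor at 50 ng/ml for 7 days. The stimulated BMMs of 3 libraries were kept for 24 h with cartilage fragments, at 5 per macrophage, and the control BMMs of 3 libraries were kept without them. All 6 libraries share the growth factor, and the fragments were crushed femoral head cartilage of the same mice that gave the marrow. The comparison asks how the transcripts of macrophages respond to cartilage fragments. The labels do not say whether the libraries of a group came from separate cultures or animals, so the p-values measure the spread between these libraries, which may be technical.

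A macrophage that takes up lipoproteins or cell debris frees cholesterol from its esters inside the lysosome, with the acid lipase encoded by Lipa. The soluble carrier Npc2 passes the sterol to the membrane protein Npc1, which moves it out of the lysosome. In the endoplasmic reticulum Soat1 joins cholesterol to a fatty acid again, and the ester is kept in droplets coated by Plin2, from which neutral hydrolases such as Nceh1 release it. Pnpla2 and Mgll act mainly on the glycerides of the same droplets.

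The deposited values are FPKM, the fragments of each transcript as Cufflinks divided them by its length and by the depth of the library. Each file lists 34535 reference transcripts, which carry symbols, and 1453 to 1654 transcripts assembled in that library alone, which do not. From the coverage beside each FPKM, a library was estimated to rest on 692269 to 768635 fragments. The Methods give a far larger number of reads per sample, and the reason for the gap was not tested. Counting errors and scaled fragments, both defined below, rest on this estimate. The 8 macrophage markers summed to 29520 to 40370 FPKM per library, of which Lyz2 alone gave 26780 to 37370 FPKM. Of these 8, 2 had an adjusted p under 0.05 (limma, described below). Adgre1 stood at 349.8 to 373.2 FPKM in controls and at 524.2 to 566.2 FPKM in stimulated libraries. Cd14 and Itgam were also higher in every stimulated library, and the groups of the other macrophage markers overlapped. Of 15 chondrocyte markers found, 9 were at 0 in all 6 libraries and the sums were 1.44 to 5.21 FPKM. Of 12 adipocyte markers, 8 were at 0 in all libraries, Adipoq, Plin1 and Cidec among them, and the sums were 444.4 to 524.9 FPKM in controls and 462.0 to 496.8 FPKM in stimulated libraries. The sums of 8 fibroblast markers moved with the groups, at 156.8 to 169.7 FPKM in controls and 104.9 to 119.3 FPKM in stimulated libraries, and 4 of the 8 had means under 1 FPKM. Most of each sum was from Col1a1 and Col1a2. Col1a1 stood at 74.4 to 87.4 FPKM in controls and 43.6 to 50.7 FPKM in stimulated libraries. Col1a2 stood at 71.8 to 86.4 and 56.4 to 62.6 FPKM. Both are on the study's own list of lower genes, and the groups of the other fibroblast markers overlapped. The part of these markers in the results was not tested. The Methods give male mice and the labels give no sex, while Xist was at 19.8 to 23.6 FPKM and the Y-linked Ddx3y, Eif2s3y, Kdm5d and Uty were at 0 in all 6 libraries.

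None of the 8 genes passed the test of the gene sums, the FPKM of all transcripts of a gene added up. Plin2 and Nceh1 were lower in every stimulated library than in every control, at 79.9% and 83.7% of the control mean, and the other 6 genes had overlapping groups. All 8 log2 fold changes lay below 0, with a median of -0.21, against a median of 0.0037 and a share of 49.5% below 0 over the 10393 genes tested. The members were chosen with earlier results of these data known, so this contrast is not independent evidence. A gene was tested where its FPKM averaged 1 or more over the 6 libraries, and all 8 members were. The test was limma on log2(FPKM + 0.1), two-sided, and p was adjusted by Benjamini-Hochberg over the 10393 genes, of which 0.366% were past the threshold of 0.05. Every stimulated library lay below every control for 6.89% of the genes. At an unadjusted p of 0.05, 2 of the 8 members were lower, as were 3.8% of all genes. Npc1, Soat1, Nceh1 and Plin2 are also on the list of lower genes that the study made from these same libraries, so their direction here is not independent evidence. The study called these genes significant at a false discovery rate under 0.05 with its own processing, whereas none of them passed limma on the gene sums here. In bulk RNA, fewer cells of a type and less RNA per cell cannot be told apart.

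The count of 2 members with separate groups depended on single libraries, and groups separate more easily with 1 library fewer. It was 5 without stimulated replicate 1, where 12.3% of all genes tested had every stimulated library lower. It was 4 without control replicate 2 and 4 without stimulated replicate 2, against 11.6% of all genes in each case, and the increases are not read as a result about the members. Nceh1 and Plin2 had separate groups in each of these runs by construction, since leaving out a library cannot make separate groups overlap. The count was 0 when only the transcripts that carry the symbol were summed, where 6.13% of 10352 genes had every stimulated library lower. On that basis Nceh1 and Plin2 had log2 fold changes of 0.23 and 0.21, the other 6 members stayed below 0, and the median over the members was -0.11 against 0.022 over all genes tested. Counted as fragments, described with Plin2, the direction was that of the gene sums for all 8 members.

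In the control BMMs the members covered a wide range of levels per length. Lipa was the 81st highest of the tested genes and Plin2 was the 125th. Npc2 ranked 232, Soat1 526, Pnpla2 666, Nceh1 736 and Npc1 1099. Mgll stood apart at rank 7543, so that 72.6% of the tested genes had a higher level. Pnpla2 and Nceh1, neighbours in this order, were at 104.2 ± 6.62 and 96.8 ± 3.04 FPKM in the controls (SD, n = 3). Pnpla2 was above Nceh1 in each control library, and their difference was not tested.

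**Figure D1:**
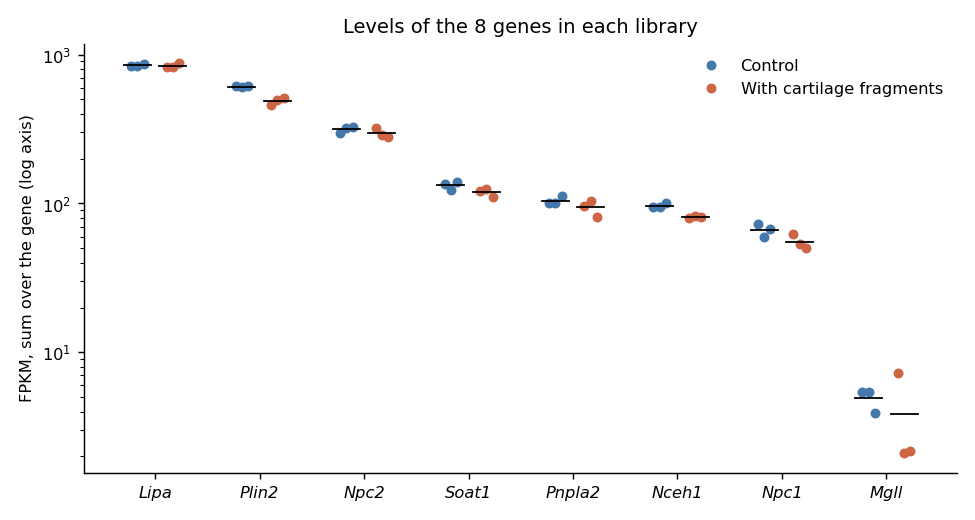
FPKM of each gene, summed over its transcripts, on a log axis, for the 3 control libraries (blue) and the 3 libraries with cartilage fragments (orange), with group means as black lines. The groups of Plin2 and Nceh1 do not overlap, the libraries of Mgll lie between 2.10 and 7.24 FPKM, and the other genes lie above 50 FPKM in all 6 libraries.

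Among the lysosomal genes, Lipa and Npc2 had the smallest log2 fold changes of the 8 members in the gene sums, and Npc1 was farther below 0. Lipa, which frees cholesterol from esters delivered to the lysosome, is on the minus strand of chromosome 19 from 34492316 to 34527474. Its level was 842.7, 836.5 and 858.7 FPKM in the controls and 824.0, 820.7 and 871.2 FPKM in the stimulated libraries. The highest and the lowest of the 6 values were both from stimulated libraries. Its log2 fold change was -0.01 with a standard error of 0.048 and a 95% interval of -0.12 to 0.10 (limma, adjusted p = 0.960). 

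Lipa has 2 reference transcripts of nearly equal length, 2971 and 2967 bases. In 5 libraries all of its FPKM were on NM_021460, with NM_001111100 at 0. In stimulated replicate 1 the value was divided, with 693.6 FPKM on NM_021460 and 130.4 FPKM on NM_001111100. The gene sum of that library lay within the range of the other stimulated libraries.

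Npc2, the carrier in the lysosome lumen, is on the minus strand of chromosome 12 from 84754559 to 84773112. It stood at 297.3, 319.6 and 325.8 FPKM in the controls and at 319.5, 288.8 and 279.9 FPKM in the stimulated libraries. Stimulated replicate 1 lay among the controls, and stimulated replicates 2 and 3 lay below all of them. The log2 fold change was -0.09 with a standard error of 0.077 and a 95% interval of -0.26 to 0.09 (limma, adjusted p = 0.779). Leaving out 1 library moved it from -0.14, without stimulated replicate 1, to -0.048, without stimulated replicate 3, and no such value passed.

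Npc1, the membrane protein that takes cholesterol from Npc2, is on the minus strand of chromosome 18 from 12189694 to 12236386. It stood at 73.3, 59.2 and 67.4 FPKM in the controls and at 62.2, 53.1 and 50.2 FPKM in the stimulated libraries. Stimulated replicates 2 and 3 were below all controls, and stimulated replicate 1 was above control replicate 2. For Npc1 the log2 fold change was -0.27 with a standard error of 0.137 and a 95% interval of -0.59 to 0.04 (limma, adjusted p = 0.599). In control replicate 1, 26.2% of the level was on an assembled transcript without a symbol, from 12189694 to 12208469. With that transcript left out the library stood at 54.1 FPKM, the lowest of the controls, and the log2 fold change was -0.13.

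Set against each other within a library, the membrane protein and the carrier gave Npc1 over Npc2 ratios of 0.247, 0.185 and 0.207 in the controls. In the stimulated libraries the ratios were 0.195, 0.184 and 0.180. Control replicate 1 was the highest of the 6, and the ratio in control replicate 2 lay between those of stimulated replicates 1 and 2. With the assembled Npc1 transcript left out, control replicate 1 was at 0.182, the second lowest of the 6, and the other ratios were as before.

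The genes that make and break the cholesterol ester both had means below the control. Soat1, which esterifies cholesterol in the endoplasmic reticulum, is on the minus strand of chromosome 1 from 156428108 to 156474328. It stood at 136.0, 123.9 and 139.9 FPKM in the controls and at 122.1, 125.5 and 110.4 FPKM in the stimulated libraries. The groups overlapped through control replicate 2 and stimulated replicate 2. Its log2 fold change was -0.16 with a standard error of 0.096 and a 95% interval of -0.38 to 0.06 (limma, adjusted p = 0.664). Without stimulated replicate 3 it was -0.10, and without control replicate 2 it was -0.21, neither of which passed.

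Assembled transcripts without a symbol held 18.8% of Soat1 in control replicate 3 and 22.4% in stimulated replicate 2, and were not listed for it in the other libraries. The GENCODE M21 annotation of the same genome extends Soat1 by 3583 bases beyond the end of the reference transcript. In that stretch lay further assembled transcripts that the files do not tie to a symbol, at 45.0, 17 and 0 fragments in control replicates 1 to 3 and 23.0, 49.0 and 23.9 in stimulated replicates 1 to 3. Counted with Soat1, they gave 638.5 ± 46.3 scaled fragments in controls and 591.9 ± 53.4 in stimulated libraries (SD, n = 3), a log2 ratio of -0.11. These scaled fragments give, for each gene, its estimated fragments per 1000000 fragments of the library.

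Nceh1, a neutral hydrolase that releases cholesterol from its esters, is on the plus strand of chromosome 3 from 27183004 to 27244911. It stood at 95.3, 94.7 and 100.2 FPKM in the controls and at 80.3, 81.8 and 80.7 FPKM in the stimulated libraries. All stimulated libraries were below all controls. The means were 96.8 ± 3.04 and 81.0 ± 0.759 FPKM (SD, n = 3), and the log2 fold change was -0.26 with a standard error of 0.091 and a 95% interval of -0.47 to -0.05. The adjusted p from limma was 0.423 and did not pass.

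The Nceh1 result rests on how the transcripts were added up. In control replicate 1, 31.4% of its level was on an assembled transcript without a symbol, and in control replicate 2 it was 46.8%. No such transcript was listed in the other 4 libraries. On the reference transcript alone the controls stood at 65.4, 50.4 and 100.2 FPKM, on both sides of the stimulated libraries. Its log2 fold change then had the opposite sign, at 0.23 with a standard error of 0.253 (limma, adjusted p = 0.805). Both assembled transcripts began inside the gene, at 27188621 and 27188519, and ended at 27244944 and 27244946.

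Within a library, the ratio of the ester-making Soat1 to the ester-breaking Nceh1 was 1.43, 1.31 and 1.40 in the controls. It was 1.52, 1.53 and 1.37 in the stimulated libraries. Stimulated replicate 3 lay between the controls, and stimulated replicates 1 and 2 lay above them. On the reference transcripts alone the ratio was 2.08, 2.46 and 1.13 in the controls and 1.52, 1.19 and 1.37 in the stimulated libraries. The means were then in the opposite order, at 1.89 and 1.36 against 1.38 and 1.47 for the gene sums, and the groups overlapped on both scales.

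Plin2, which coats lipid droplets, is on the minus strand of chromosome 4 from 86656565 to 86670059. It stood at 611.1, 605.0 and 612.8 FPKM in the controls and at 457.2, 495.5 and 508.9 FPKM in the stimulated libraries. The controls were close together and all stimulated libraries were below them. The means were 609.6 ± 4.11 and 487.2 ± 26.8 FPKM (SD, n = 3), and the log2 fold change was -0.32 with a standard error of 0.059 and a 95% interval of -0.46 to -0.19. The adjusted p from limma over all genes was 0.1005 and did not pass, at an unadjusted p of 0.000579. With 3 libraries a group, the exact two-sided permutation test cannot give a p below 0.1.

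Plin2 was the one member with an assembled transcript in all 6 libraries. These transcripts held 34.6%, 36.8% and 72.8% of its level in the controls and 24.1%, 35.1% and 31.2% in the stimulated libraries. Control replicate 3 stood apart, with 446.3 FPKM on the assembled transcript and 166.4 FPKM on the reference transcript. On the reference transcript alone the other controls stood at 399.7 and 382.1 FPKM and the stimulated libraries at 347.1, 321.7 and 350.4 FPKM. The log2 fold change on that basis was 0.21 with a standard error of 0.352 (limma, adjusted p = 0.863), of opposite sign to the gene sum.

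The assembled Plin2 transcripts were not the same structure in every library. In 5 libraries they reached from between 86648380 and 86648447, past the reference end, and GENCODE M21 has 1 Plin2 transcript there, 8179 bases beyond the reference, that ends at 86648386. In control replicate 3 the assembled transcript ended at 86656565, as the reference does, and its listed length was 1839 bases against 1415 to 1507 bases in the other libraries.

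**Figure D2:**
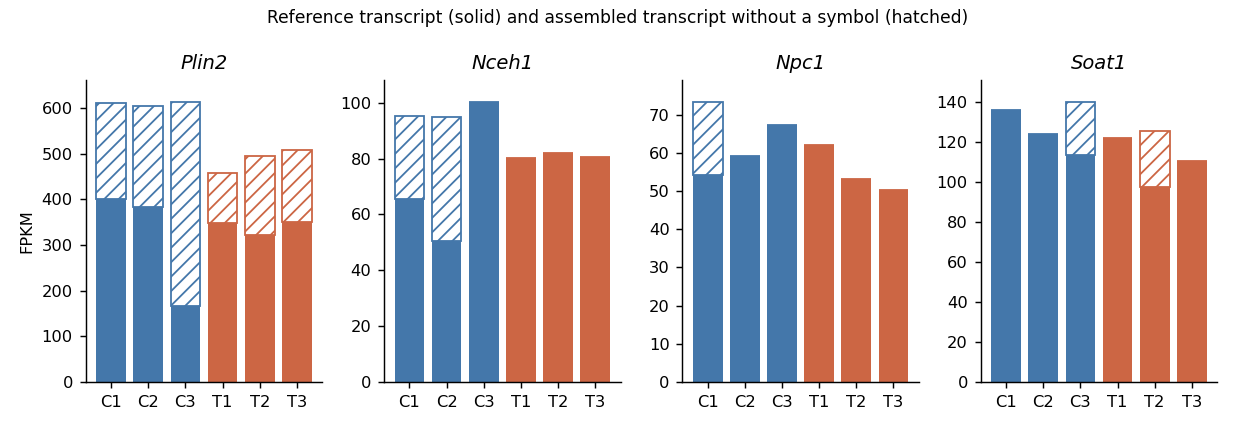
FPKM in controls (C1 to C3, blue) and libraries with cartilage fragments (T1 to T3, orange) for the 4 genes with assembled transcripts, where solid bars are the reference transcript and hatched bars the assembled transcript without a symbol. The hatched part is largest for Plin2 in C3, at 72.8% of the bar, and for Nceh1 it occurs in C1 and C2 and in no stimulated library.

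FPKM divides by transcript length, and assembled transcripts differ in length between libraries, so the fragments behind each value were estimated from the coverage as well. Plin2 had 713.7, 684.7 and 742.8 fragments in the controls and 540.8, 542.7 and 541.8 in the stimulated libraries. As scaled fragments this was 928.5, 913.6 and 1010 in the controls and 724.3, 758.4 and 782.7 in the stimulated libraries, again without overlap. On log2(scaled fragments + 1), Plin2 had a log2 fold change of -0.33 with a 95% interval of -0.45 to -0.21 and passed (limma, adjusted p = 0.000288). Its standard error was 0.058, against 0.059 for the gene sum, where the log2 fold change was -0.32. The change and its error were thus nearly the same on both scales. The lower p came mainly from the moderation that limma fits over all genes on each scale. Plin2 was the 1 member of 8 that passed as scaled fragments, where 0.876% of all genes were lower and passed. Nceh1 was at 395.1, 394.7 and 420.0 scaled fragments in the controls and at 336.0, 342.2 and 337.9 in the stimulated libraries, with a log2 fold change of -0.25 that did not pass (limma, adjusted p = 0.0909). For Npc1 and Soat1 the log2 fold changes as scaled fragments were -0.23 and -0.16 (limma, adjusted p = 0.278 and 0.350).

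**Figure D3:**
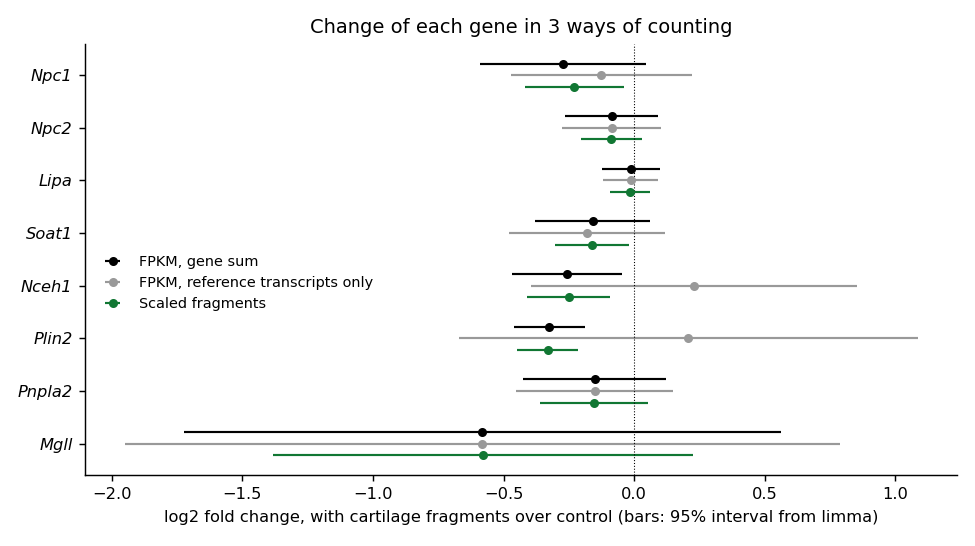
log2 fold change of the libraries with cartilage fragments over the controls, with 95% intervals from limma, for the gene sum in FPKM (black), the reference transcripts alone in FPKM (grey) and the scaled fragments (green). Black and green points lie left of 0 for all 8 genes, and the grey points of Nceh1 and Plin2 lie right of 0 with intervals that span it.

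The spread between libraries was in places smaller than counting error, which was taken as 100 divided by the square root of the mean number of fragments. For Plin2 in controls the SD was 0.674% of the mean FPKM, against a counting error of 3.74% for 1 library, and as scaled fragments the SD was 5.46%. For Nceh1 in stimulated libraries the SD was 0.938% against a counting error of 6.41%. Of the 16 SDs, 1 for each gene and group, 6 were below the counting error of the same libraries. Where the estimated fragments hold, an SD below the counting error understates the error of these values. The standard error that limma gave Plin2, 0.059 on the log2 scale, was above the 0.047 that counting error alone gives for the group totals of 2141 and 1625 fragments.

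**Figure D4:**
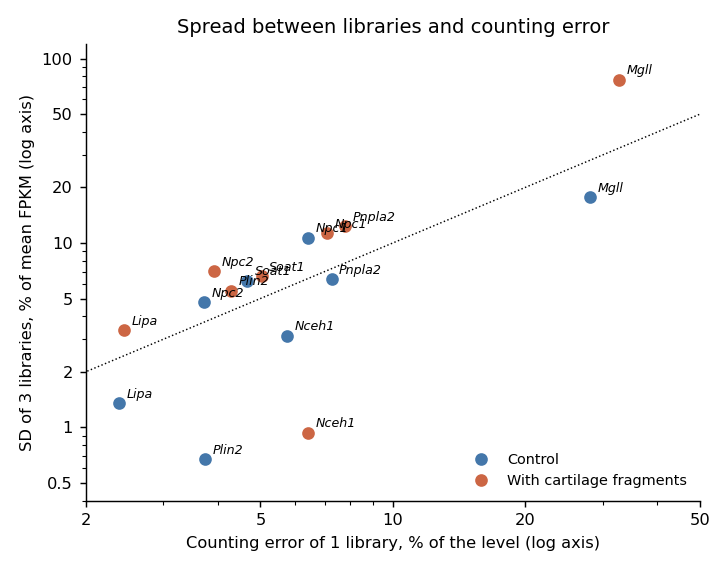
SD of the 3 libraries of a group as a percentage of the mean FPKM, against the counting error of 1 library as a percentage of the level, both on log axes, for each gene in controls (blue) and in libraries with cartilage fragments (orange). The dotted line marks equality, and 6 of the 16 points lie below it, with Plin2 in controls and Nceh1 in stimulated libraries the farthest.

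The triglyceride genes showed no difference beyond the spread. Pnpla2, the lipase that starts the breakdown of droplet triglycerides, is on the plus strand of chromosome 7 from 141455188 to 141460743. It stood at 100.6, 100.1 and 111.8 FPKM in the controls and at 96.7, 104.3 and 81.5 FPKM in the stimulated libraries. Stimulated replicate 3 was the lowest of all and stimulated replicate 2 lay among the controls. For Pnpla2 the log2 fold change was -0.15 with a standard error of 0.119 and a 95% interval of -0.43 to 0.12 (limma, adjusted p = 0.752). Leaving out 1 library moved it from -0.23, without stimulated replicate 2, to -0.051, without stimulated replicate 3, and no such value passed. Of the 3 reference transcripts of Pnpla2, 2 were at 0 in all 6 libraries.

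Mgll, which splits the last fatty acid from glycerol, is on the plus strand of chromosome 6 from 88724412 to 88828360. It stood at 5.46, 5.39 and 3.92 FPKM in the controls and at 7.24, 2.10 and 2.17 FPKM in the stimulated libraries. Stimulated replicate 1 was the highest of the 6 and stimulated replicates 2 and 3 were the lowest. These values rest on 38 fragments over the controls and 28 over the stimulated libraries, with 5 fragments each in stimulated replicates 2 and 3. The log2 fold change was -0.58 with a standard error of 0.496 and a 95% interval of -1.72 to 0.56 (limma, adjusted p = 0.768), so that no difference was detectable in these libraries. The SD of the stimulated libraries was 76.9% of the mean FPKM, above the counting error of 32.7% for 1 library. Without stimulated replicate 1 it was -1.15 and without stimulated replicate 2 it was -0.28, and neither value passed.

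The few Mgll fragments were given to different transcripts in different libraries. In control replicates 2 and 3 the whole value was on NM_011844, and in the other 4 libraries it was on NM_001166249. Both transcripts span the same positions, and the other 2 of its 4 reference transcripts were at 0 in all libraries. At 5 to 18 fragments a library, the division between transcripts was not read further.

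Setting the droplet coat against the droplet lipase, Plin2 over Pnpla2 was 6.08, 6.04 and 5.48 in the controls and 4.73, 4.75 and 6.24 in the stimulated libraries. Stimulated replicate 3, where Pnpla2 was lowest, had the highest ratio of all, and the other stimulated libraries had the lowest. On the reference transcripts alone the ratio was 3.97, 3.82 and 1.49 in the controls and 3.59, 3.08 and 4.30 in the stimulated libraries, so that the means turned from 5.87 and 5.24 to 3.09 and 3.66. Mgll over Pnpla2 was 0.054, 0.054 and 0.035 in the controls and 0.075, 0.020 and 0.027 in the stimulated libraries, and the groups overlapped.

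The genes whose levels followed Plin2 most closely over the 6 libraries were Pld3, Arl4c and Pi4ka, with Pearson's r of 0.997, 0.997 and 0.993 on log2(FPKM + 0.1), among 5523 genes that averaged 10 FPKM or more. Pld3 stood at 571.3, 561.7 and 572.8 FPKM in the controls and at 454.6, 490.5 and 501.7 FPKM in the stimulated libraries, in the same order of libraries within the stimulated group as Plin2. For Nceh1 the closest were Serpinb2, Lgmn and 1700017B05Rik, with r of 0.990, 0.988 and 0.986. Lgmn, a protease of the lysosome, stood at 432.3, 440.4 and 472.9 FPKM in the controls and at 363.9, 365.2 and 347.6 FPKM in the stimulated libraries. The points are 6 libraries in 2 groups, so any gene that separates the groups in the same way will correlate highly. None of the 6 genes passed an adjusted p of 0.05 (limma, smallest 0.118 for Lgmn). Pld3, Arl4c and Lgmn are on the study's own list of lower genes, so their directions are not independent evidence.

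Around the members, 5 lists of genes of the same pathways held 79 tested genes, of which 1 was lower and 1 higher with an adjusted p under 0.05 (limma). Every stimulated library lay below every control for 11 of the 79 and above for 10, against 6.89% and 9.04% of all genes. As scaled fragments, 2 of the 79 were lower and 4 higher with an adjusted p under 0.05, against 0.876% and 1.68% of all genes. Both genes that passed in FPKM act on fatty acids, and both are on the lists that the study made from these libraries, so their directions are not independent evidence.

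Of the 21 genes for fatty acid uptake and activation, 18 were tested, with 1 lower and 1 higher. Fabp5, a fatty acid binding protein of the cytosol, fell from 1482 ± 64.1 to 1193 ± 10.6 FPKM (SD, n = 3), with a log2 fold change of -0.31 and a standard error of 0.046 (limma, adjusted p = 0.0388). Acsl1, which activates fatty acids to their CoA esters, rose from 17.3 ± 2.74 to 43.0 ± 5.27 FPKM, with a log2 fold change of 1.31 and a standard error of 0.177 (limma, adjusted p = 0.0304). Both passed as scaled fragments as well. Neither passed with reference transcripts alone, without trend and robust moderation or with a replicate block. Fabp5 did not pass without any 1 of the 6 libraries, and Acsl1 passed without control replicate 1 and in no other run with 1 library left out. Over 18 alternatives, Fabp5 passed in 9, with adjusted p from 0.000122 to 0.599 and log2 fold changes from -0.45 to -0.28, and Acsl1 passed in 10, with adjusted p from 9.49e-07 to 0.174 and log2 fold changes from 1.13 to 1.44 (limma). Acsl5, another enzyme of that step, had means of 44.9 and 74.3 FPKM with separate groups, and did not pass (limma, adjusted p = 0.550). Its stimulated replicate 3 stood at 113.9 FPKM against 53.3 and 55.6 in the others, and its log2 fold change of 0.64 became 0.13 with reference transcripts alone.

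Of 22 genes for the transfer of sterols between organelles, 19 were tested and none passed in FPKM, 9 of them with a log2 fold change below 0. At an unadjusted p under 0.05 (limma), 2 were lower and 3 higher, against 3.8% and 5.39% of all genes. As scaled fragments 1 was lower and 1 higher and passed, against 0.876% and 1.68% of all genes. The lower one is on the study's own list of lower genes. Osbpl3, an oxysterol-binding protein relative, had means of 8.32 and 21.3 FPKM with separate groups. It was the higher gene that passed as scaled fragments, at a log2 fold change of 0.77 (limma, adjusted p = 0.011). Its stimulated replicate 1 stood at 38.5 FPKM against 13.9 and 11.6 in the others, and its log2 fold change of 1.15 became 2.04 with reference transcripts alone. Osbpl5, of the same family, had means of 3.89 and 1.81 FPKM with separate groups on 46.0 fragments in all. Stard4, a carrier of free cholesterol, had means of 3.69 and 5.33 FPKM with overlapping groups.

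Of 25 genes for the assembly and coat of lipid droplets, 16 were tested and none passed in FPKM. At an unadjusted p under 0.05 (limma), 3 were lower and 1 higher, against 3.8% and 5.39% of all genes. As scaled fragments 1 was higher and passed, against 1.68% of all genes. Lpcat2, an enzyme of phosphatidylcholine synthesis found at droplets, stood at 24.6, 21.0 and 18.9 FPKM in the controls and at 48.1, 32.4 and 45.7 FPKM in the stimulated libraries. The groups did not overlap, at a log2 fold change of 0.95 and a standard error of 0.198 (limma, adjusted p = 0.123), and as scaled fragments Lpcat2 was higher and passed (limma, adjusted p = 0.000419). Lpcat2 is on the study's own list of higher genes. Fitm2, needed for droplet budding, had means of 4.32 and 1.97 FPKM with separate groups on 20 fragments, and Dgat2, which makes triglycerides, had means of 0.648 and 1.84 FPKM on 11 fragments.

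Of 20 other lipid and ester hydrolases, 11 were tested and none passed in FPKM or as scaled fragments (limma), with 8 of the 11 log2 fold changes below 0. At an unadjusted p under 0.05 (limma), 3 were lower and 1 higher, against 3.8% and 5.39% of all genes. Every stimulated library lay below every control for 5 of them and above for 1, against 6.89% and 9.04% of all genes. Ddhd2, a lipase of triglycerides, stood between 10.04 and 11.86 FPKM in the controls and between 6.27 and 8.95 FPKM in the stimulated libraries, and its log2 fold change of -0.62 became 2.11 with reference transcripts alone. Dagla, which makes the monoglyceride that Mgll breaks down, had means of 2.28 and 1.11 FPKM. Pnpla8, a phospholipase related to Pnpla2, had means of 9.61 and 13.8 FPKM with separate groups (limma, adjusted p = 0.423).

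Of 16 transcription factors of lipid and lysosome genes, 15 were tested and none passed in FPKM. At an unadjusted p under 0.05 (limma), 0 were lower and 1 higher, against 3.8% and 5.39% of all genes. As scaled fragments 1 was higher and passed, against 1.68% of all genes. Hif1a, the oxygen-regulated factor, stood at 20.3, 20.1 and 23.4 FPKM in the controls and at 32.9, 32.7 and 31.9 FPKM in the stimulated libraries. The groups did not overlap, at a log2 fold change of 0.61 and a standard error of 0.145 (limma, adjusted p = 0.182), and as scaled fragments Hif1a was higher and passed (limma, adjusted p = 0.00763). With reference transcripts alone its log2 fold change was 2.64. Hif1a is on the study's own list of higher genes. Srebf2, which drives genes of cholesterol synthesis, had means of 20.4 and 26.3 FPKM with separate groups, and its log2 fold change of 0.36 became -0.16 with reference transcripts alone. Foxo1 had means of 2.82 and 2.07 FPKM with overlapping groups.

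Promoter windows from RefSeq on GRCm38.p6, from 250 bases before the start of a gene to 50 bases after it, were found for 7 of the 8 members, all but Npc1, with 8 windows because Mgll has 2. The palindrome CACGTG, the core of the E-box motif to which TFEB and related regulators of lysosomal genes bind, was searched on both strands. It was in the windows of 3 of the 7 members, Nceh1, Plin2 and Mgll, and in 7.15% of all 32851 windows. The match began at position -26 from the start of the gene for Nceh1, at -4 for Plin2 and at -44 for the first window of Mgll. The 120 bases from -100 to 20 bases into the transcript are shown for these 3 genes, with the E-box in capitals, and for Soat1, which had no match.
Nceh1, chr3:27182904-27183023, plus strand: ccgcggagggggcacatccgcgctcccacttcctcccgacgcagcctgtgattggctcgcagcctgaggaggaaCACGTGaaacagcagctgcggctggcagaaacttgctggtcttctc
Plin2, chr4:86670040-86670159, minus strand: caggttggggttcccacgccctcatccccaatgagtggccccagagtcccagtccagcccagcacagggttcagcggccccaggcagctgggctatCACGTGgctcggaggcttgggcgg
Mgll, chr6:88724312-88724431, plus strand: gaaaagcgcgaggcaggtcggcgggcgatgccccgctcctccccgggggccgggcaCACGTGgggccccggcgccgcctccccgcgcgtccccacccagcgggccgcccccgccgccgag
Soat1, chr1:156474309-156474428, minus strand: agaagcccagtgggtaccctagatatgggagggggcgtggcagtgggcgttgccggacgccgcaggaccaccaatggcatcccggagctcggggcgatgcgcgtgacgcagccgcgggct

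Any link between the E-box matches and the levels of the genes was not tested. The GC box GGGCGG was in the windows of 6 of the 7 members, all but Nceh1, and in 35.7% of all windows. The sterol regulatory element TCACNCCAC was in no member window and in 1.24% of all windows. Both were searched on both strands. The windows of the members held 59.3% to 72.3% G and C, above the median of 52.7% over all windows. A match describes the letters of a window and does not show that a factor binds there.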

How the data were processed

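The authors aligned paired-end reads of 100 bases from stranded mRNA libraries to mm10 with TopHat and Bowtie, ran Cufflinks on each library and named Cuffdiff, with versions not given in the sources used here. The deposited FPKM are Cufflinks values per transcript, with neither gene counts nor fold changes in the files. The coverage deposited beside each FPKM is a transcript's mean read depth. Control replicates 1 to 3 are C1 to C3 and stimulated replicates are T1 to T3, grouped by the sample labels.

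FPKM were summed per gene symbol. An assembled transcript, which carries no symbol, was added to the symbol that shares its Cufflinks gene identifier where there was only 1. Summing lines with the symbol alone is the alternative, and is given beside each member value, and each named pathway gene, whose direction it turns or whose value it moves by over 1.5 times. Fragments were estimated as coverage times transcript length, less the fitted loss at transcript ends, over 101 bases per fragment. Of low values, 95.2% to 95.9% fell within 0.1 of a whole number of fragments. Counting errors cover the sampling of fragments only, while the intervals of fold changes are those of limma and rest on the spread between libraries.

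Groups were compared on log2(FPKM + 0.1) with limma 3.58.1 in R 4.3.3, where eBayes used its trend and robust options. The test was two-sided over all genes that averaged 1 FPKM or more, and an adjusted p (Benjamini-Hochberg) under 0.05 passed. Tables and figures were made with Python 3.11.15, pandas 2.3.3, numpy 2.4.6 and matplotlib 3.10.9. The limma step was tried on simulated fragments with known changes larger than those of the members and with no assembled transcripts. That trial cannot show how well changes as small as those of the members are found. Positions are those of mm10, which has the coordinates of GRCm38. Libraries of the same group differed by more than counting noise, with a chi-square per gene of 1.49 to 1.67, so none was counted as a copy.

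The members and lists were chosen with earlier results of these data known. The genes named are the members, each pathway gene past the threshold, the 3 pathway genes of largest absolute log2 fold change in each list, and the 3 genes most like each of the 2 members with separate groups and the largest change. Alternatives changed the pseudocount, filter, scaling, moderation, replicate block, transcripts summed or unit, or left out a library. Of other markers, 7 of 8 for lymphocytes and all 6 for erythroid cells were at 0 in all libraries, and 9 neutrophil markers summed to 758.4 to 1130 FPKM.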

Additional observations from a re-analysis of the deposited data

How the results depend on the processing

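Of the 10393 genes tested, 38 passed the threshold. The number was 18 without trend and robust moderation, 19 with reference transcripts only, 266 as scaled fragments, and 9 to 30 when 1 library was left out. With the replicate number as a block it was 18. Deviations from the group means correlated at -0.0926, 0.0673 and 0.0302 between samples of the same number. Between samples of different number they ranged from -0.146 to 0.107. These values show no common deviation by number, and they cannot show whether the cultures were paired. With the block no member passed. The number of members past the threshold was 0, and 1 as scaled fragments, where Plin2 passed at -0.33. The number of members with separate groups was 2, with 0 for reference transcripts only and 2 to 5 without 1 library, where 11.5% to 12.3% of all genes had every stimulated library lower. With reference transcripts only, the log2 fold changes of Nceh1 and Plin2 became 0.23 and 0.21, by construction, since assembled transcripts of unequal share were left out. Of the pathway genes 2 passed, and 0 did without trend and robust moderation, with the block or with reference transcripts only, 6 did as scaled fragments, and 0 to 1 did without 1 library. Why these other counts moved, beyond the pass of Plin2 as scaled fragments, was not tested. The log2 fold change of Lipa ranged from -0.041 to 0.0023 without 1 library, and was above 0 without stimulated replicate 2. The log2 fold changes of Npc1, Npc2, Soat1 and Pnpla2 stayed below 0 and did not pass under all 18 alternatives, nor did that of Mgll under the 17 that gave it a value, since its mean is under 5 FPKM, the stricter filter. Pseudocount, filter and quantile settings leave the count of separate groups as it is or were not run for it. Mgll had the largest counting error of the members, 28.1% of the level in a control library and 32.7% in a stimulated one, at 5 to 18 fragments a library.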
